A study of Mus musculus with 6 samples.

Results

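Matricellular proteins are secreted into the extracellular matrix, where they bind collagens, growth factors and cell surface receptors without forming the main fibres themselves. The 10 genes described here encode such proteins of bone and stroma, and were taken by gene symbol (Sparc, Postn, Thbs1, Thbs2, Tnc, Cthrc1, Ctgf, Cyr61, Wisp1 and Wisp2) from a table of 22838 genes, in which all 10 were found. Transcripts had been measured by RNA sequencing of marrow from the tibia and femur of 3 Cbx2-/- mice and 3 wild-type mice, all 3-week-old and of strain 129/C57BL/6 per the labels. The Cbx2-/- animals weighed 4.0 g on average, against 12.3 g for the wild-type animals, so genotype and body size cannot be told apart. Cbx2 encodes a chromodomain subunit of Polycomb repressive complex 1, and the study, by its title, asked about its role in bone and fat cell formation in postnatal long bones. The labels do not describe the Cbx2 allele or the sex of the animals, so what part of the gene was lost cannot be stated. Values are FPKM, in which the reads of a gene are divided by its transcript length and by the library's mapped reads, so levels of different genes can be set side by side.

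In bone, Sparc (osteonectin) is an abundant collagen-binding glycoprotein of osteoblasts, and Postn (periostin) is a matrix protein of the periosteum and other collagen-rich connective tissue. Thrombospondins 1 and 2 act on cell adhesion and vessel growth, and thrombospondin 1 also activates latent TGF-beta. Tenascin C is a large oligomeric protein of developing and remodelling matrix, and Cthrc1 is a secreted protein with a short collagen-like repeat. Ctgf, Cyr61, Wisp1 and Wisp2 belong to the CCN family, whose members share modules that bind integrins and growth factors, and Wisp2 lacks the C-terminal module of the others. In other cell systems, Ctgf and Cyr61 are standard target genes of the transcriptional co-activators YAP and TAZ with TEAD factors, and Wisp1 and Wisp2 were named for their induction by Wnt1.

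The libraries were checked before the members were read. Cbx2 itself was at 2.11, 1.87 and 1.88 FPKM in the Cbx2-/- libraries and at 2.90, 3.83 and 2.75 FPKM in the wild-type libraries (limma adjusted p = 0.0558), so transcript of the gene was still read in the libraries labelled Cbx2-/-. Markers of blood-forming marrow such as Mpo, Elane, Camp and the globins were abundant in all 6 libraries, with summed levels of the 10 listed markers of 22374 to 28445 FPKM in Cbx2-/- marrow and 23282 to 27932 FPKM in wild-type marrow, a sum set mainly by Hba-a1 and Camp. Among them the B cell gene Cd79a fell, to 35.2, 37.4 and 70.7 FPKM in Cbx2-/- marrow, against 203, 253 and 266 FPKM in wild-type marrow (limma adjusted p = 0.00221). Kit, a receptor gene of early blood cells and mast cells, was 2.04-fold higher (limma adjusted p = 0.0084), and both calls held in all 6 fits leaving out 1 library. Summed skeletal muscle markers reached 379 and 445 FPKM in Cbx2-/- replicates 1 and 2, against 13.4 FPKM in Cbx2-/- replicate 3 and 22.8 to 34.1 FPKM in wild-type marrow. Of the 6 tested muscle markers 0 passed the threshold (3 were higher at an unadjusted limma p under 0.05). Replicate 1 of each genotype had Y-linked transcripts, with a sum of 31.1 FPKM in each, and the other 4 libraries had sums of at most 0.087 FPKM, so the mix was the same in both genotypes.

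Of the 10 members, 4 were lower and 1 was higher in Cbx2-/- marrow at a limma adjusted p under 0.05, and 5 did not pass. Cthrc1, Sparc, Wisp1 and Tnc fell, and Ctgf rose. The members thus moved in opposite directions, with a median difference of -0.32 on the log2(FPKM + 1) scale, against 0.02 for all 12006 tested genes. Among all tested genes, 8.31% were lower and 8.8% higher, together 17.1%. Higher genes made up 51.4% of those calls, and 37.8% when libraries were scaled to the FPKM sum without haemoglobin. Under that scaling 3 members were lower (all but Wisp1) and 1 was higher, beside 8.18% lower and 4.98% higher among all genes. With no filter on low values 2 members were lower (Sparc and Cthrc1) and 1 was higher, beside 5.03% and 4.87%. The genotypes did not overlap in 6 of the 10 members (the 5 called genes and Cyr61), and in 39.6% of all tested genes. All 10 members had at least 1 FPKM in all 6 libraries, so none was tested because of a high level in a single genotype.

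**Figure D1:**
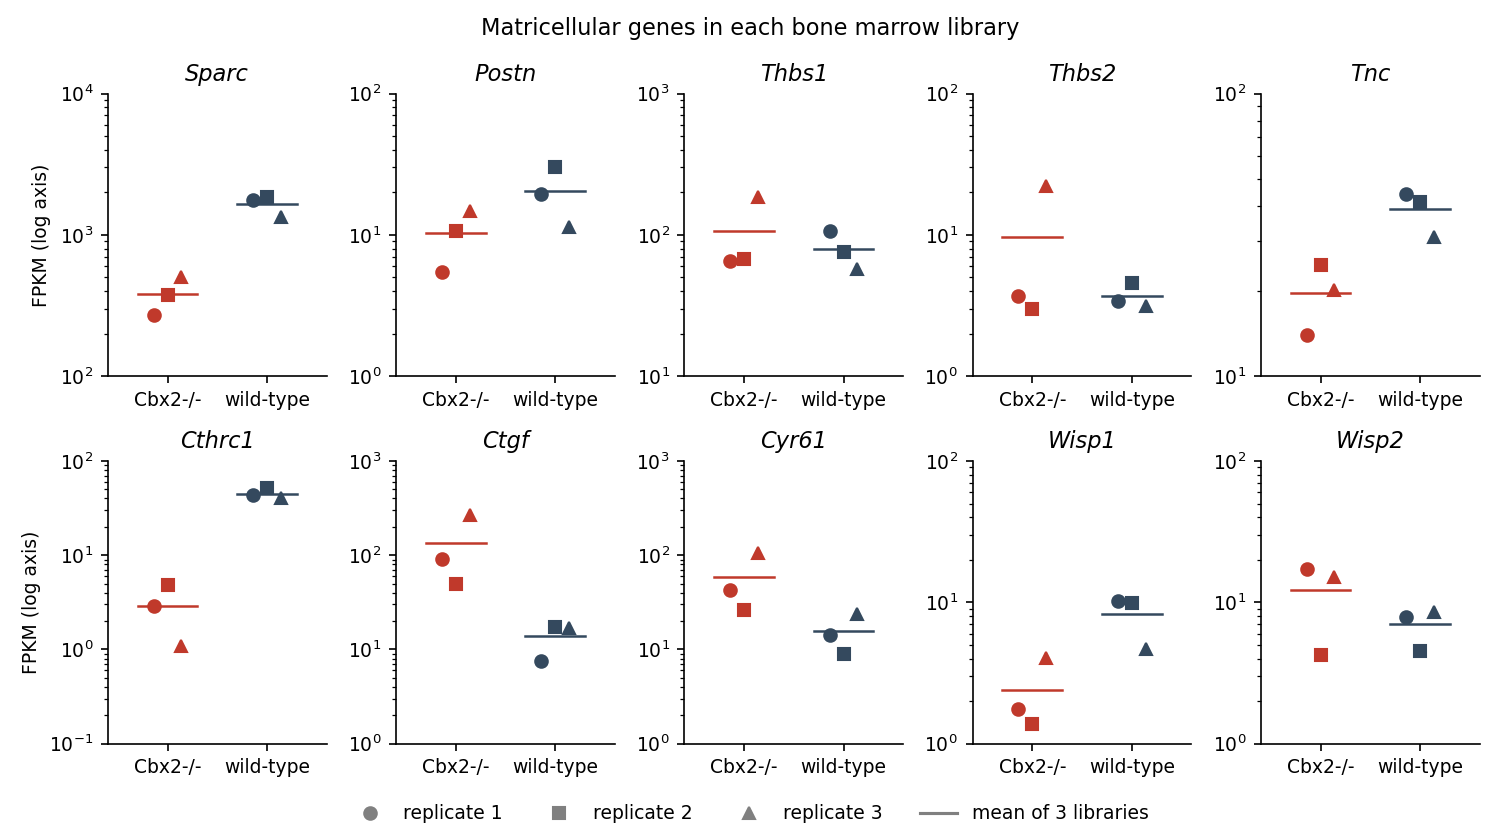
FPKM of each of the 10 genes in each library on log axes, with Cbx2-/- in red on the left, wild-type in dark blue on the right, a marker shape per replicate number and a bar at the mean of 3 libraries. Sparc, Cthrc1, Tnc and Wisp1 lay lower and Ctgf and Cyr61 higher in every Cbx2-/- library than in any wild-type library, and Cbx2-/- replicate 3 (triangle) was the highest of all 6 libraries for Thbs1, Thbs2, Ctgf and Cyr61.

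**Figure D2:**
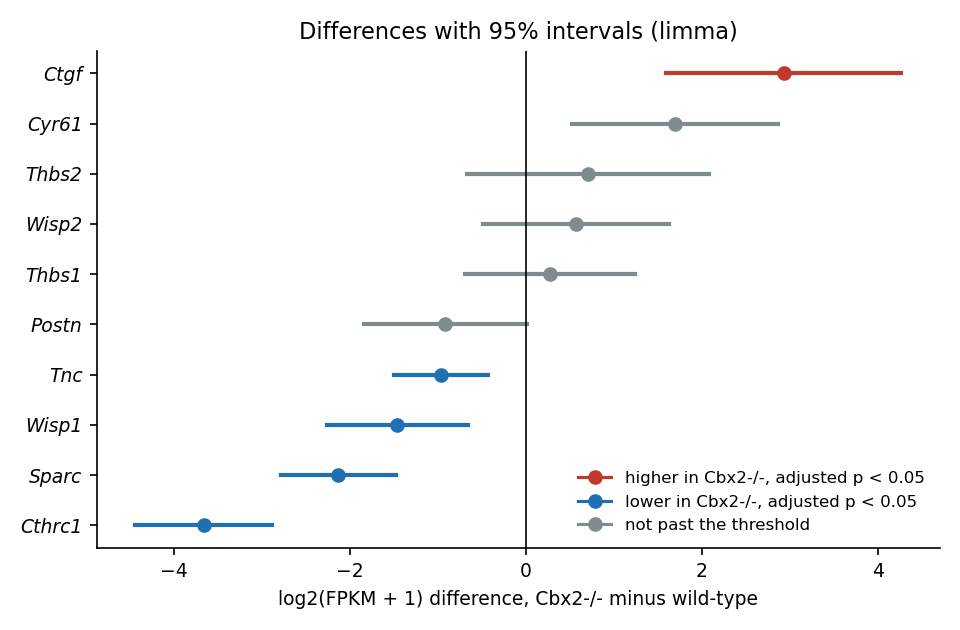
Difference of each gene between Cbx2-/- and wild-type marrow in log2(FPKM + 1), with its 95% interval from the limma fit across all tested genes (n = 3 each), coloured by the call at an adjusted p of 0.05. Cthrc1 had the lowest difference, -3.67, and Ctgf the highest, 2.93; the interval of Cyr61 lay above 0 although its adjusted p of 0.0557 missed the threshold.

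Sparc (chromosome 11, 55394500 to 55423183, minus strand, build GRCm38) was the most abundant member in both genotypes and fell in Cbx2-/- marrow. Its level was 272, 375 and 506 FPKM in the Cbx2-/- libraries and 1766, 1859 and 1342 FPKM in the wild-type libraries. Every Cbx2-/- library lay below every wild-type library. The means were 384 ± 117 FPKM in Cbx2-/- marrow and 1656 ± 276 FPKM in wild-type marrow (SD, n = 3 each), a 4.31-fold lower level, with a difference of -2.14 ± 0.28 (log2, SE, limma adjusted p = 0.00314). The call was kept in all 6 fits that left out 1 library. In rank by mean FPKM among all genes of the table, Sparc stood at place 207 in Cbx2-/- marrow and at place 60 in wild-type marrow.

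The start region of Sparc is shown because Sparc had the highest level of the 10 members in every library. The RefSeq promoter table (build GRCm38.p6), which holds 250 bases before and 50 bases after a start site, matched 5 of the 10 members: Sparc, Postn, Thbs2, Tnc and Cyr61. The window of Sparc is chr11:55420031-55420330 on the minus strand. It lies inside the gene span given above, which is from another annotation and begins farther upstream, at 55423183. The window is printed 5′ to 3′ with a match to the RUNX motif TGTGGT, on the reverse strand, in capitals.

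Sparc: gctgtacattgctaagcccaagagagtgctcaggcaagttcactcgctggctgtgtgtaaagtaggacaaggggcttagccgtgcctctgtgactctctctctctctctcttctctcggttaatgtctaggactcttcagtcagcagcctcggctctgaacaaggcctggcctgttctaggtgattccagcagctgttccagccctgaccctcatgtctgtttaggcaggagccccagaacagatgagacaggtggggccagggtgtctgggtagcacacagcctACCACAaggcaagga

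That match began at base 36 after the start site. TGTGGT or its reverse complement was present in 16.8% of all 32851 promoter windows of 300 bases, and it was not in the windows of the other 4 matched members. The TATA motif TATAAA on the sense strand and the TEAD motif GGAATG on either strand were not in the Sparc window.

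Cthrc1 (chromosome 15, 39076932 to 39087121, plus strand) had the lowest ratio between the genotypes of the 10 members. Cbx2-/- libraries had 2.91, 4.77 and 1.09 FPKM and wild-type libraries 43.5, 51.7 and 40.1 FPKM. The genotypes were far apart, with the highest Cbx2-/- library under the lowest wild-type library. Cthrc1 averaged 2.92 ± 1.84 FPKM in Cbx2-/- marrow and 45.1 ± 5.98 FPKM in wild-type marrow (SD, n = 3 each), 15.4-fold lower, with a difference of -3.67 ± 0.33 (log2, SE, limma adjusted p = 0.00083). Its call, like that of Sparc, held in all 6 fits leaving out 1 library and in the other 12 alternatives.

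Tnc (chromosome 4, 63959785 to 64047015, minus strand) also fell, by a smaller factor. Its level was 14.0, 24.8 and 20.3 FPKM in the Cbx2-/- libraries and 44.2, 41.3 and 31.1 FPKM in the wild-type libraries. No Cbx2-/- library reached the lowest wild-type library. The 1.98-fold lower mean of 19.7 ± 5.43 FPKM in Cbx2-/- marrow, against 38.9 ± 6.88 FPKM in wild-type marrow (SD, n = 3 each), gave a difference of -0.97 ± 0.23 (log2, SE, limma adjusted p = 0.0271). The call was lost when Cbx2-/- replicate 1 or wild-type replicate 1, 2 or 3 was left out (limma adjusted p = 0.0779, 0.114, 0.105 and 0.0511).

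Postn (chromosome 3, 54361109 to 54391037, plus strand) did not pass. Its values were 5.48, 10.7 and 14.7 FPKM in Cbx2-/- marrow and 19.6, 30.2 and 11.4 FPKM in wild-type marrow. The genotypes overlapped, since Cbx2-/- replicate 3 lay above wild-type replicate 3. The difference of -0.92 had a 95% interval of -1.84 to 0.01 (log2, limma adjusted p = 0.158). Without Cbx2-/- replicate 3 the difference was -1.20 and passed (limma adjusted p = 0.0423). In the other 5 of the 6 fits leaving out 1 library it did not pass (limma adjusted p up to 0.42).

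The falls of Sparc, Cthrc1 and Tnc came with lower levels of some osteoblast and fibroblast markers. Of 13 tested osteoblast markers 7 fell, 0 rose and 6 did not pass. Their summed level was 1066 to 1971 FPKM in Cbx2-/- marrow and 9592 to 16012 FPKM in wild-type marrow, a sum set mainly by Col1a1 and Col1a2. Among 10 tested fibroblast markers 5 fell and 2 rose (1 to 2 higher in fits leaving out 1 library). Their sums were 205 to 344 FPKM in Cbx2-/- marrow and 368 to 574 FPKM in wild-type marrow. Fbln1, which fell, was under 1 FPKM in every Cbx2-/- library and passed the expression filter only through its wild-type libraries. Col5a2, a fibrillar collagen chain gene, had 7.75, 10.4 and 16.2 FPKM in Cbx2-/- marrow and 73.2, 92.6 and 56.3 FPKM in wild-type marrow. The fibroblast markers that rose were Pi16, 2.2-fold, and Fn1, 2.49-fold (limma adjusted p = 0.00287 and 0.0493). Fn1 was named after its values were seen, and its call was lost in 4 of the 6 fits leaving out 1 library. Of 4 tested cartilage markers, 3 fell (Col2a1, Col11a1 and Col11a2). Acan, Col9a1, Col9a2, Col10a1, Sox9 and Matn1, of the same list, reached at most 0.673 FPKM in any library and were not tested. Of 3 tested tendon and periosteum markers, 0 passed limma's adjusted p (1 higher and 1 lower at an unadjusted p under 0.05). In bulk marrow, fewer cells of a type and less transcript per cell cannot be told apart, and the part of these cell types in the member differences was not tested.

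The CCN family was divided between rises and falls. Ctgf (chromosome 10, 24595442 to 24598683, plus strand; named Ccn2 in GENCODE), which encodes connective tissue growth factor, rose. It was at 90.5, 49.8 and 267 FPKM in the Cbx2-/- libraries and at 7.52, 17.5 and 16.9 FPKM in the wild-type libraries. The Cbx2-/- libraries differed widely among themselves, yet the lowest of them stood above the highest wild-type library. The mean was 136 ± 115 FPKM in Cbx2-/- marrow and 14.0 ± 5.6 FPKM in wild-type marrow (SD, n = 3 each), 9.71-fold higher, with a difference of 2.93 ± 0.58 (log2, SE, limma adjusted p = 0.0133). Without wild-type replicate 1 the call was lost (difference 2.56, limma adjusted p = 0.059). Cbx2-/- replicates 1 and 2 alone averaged 5.02 times, and Cbx2-/- replicate 3 had 19.1 times, the wild-type mean.

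Cyr61 (chromosome 3, 145646976 to 145649981, minus strand; Ccn1 in GENCODE), an immediate early gene whose product binds integrins, had values that lay on the same side as those of Ctgf. Its levels were 42.8, 26.3 and 105 FPKM in Cbx2-/- marrow and 14.2, 9.0 and 23.7 FPKM in wild-type marrow. The genotypes were separate by a narrow gap, between Cbx2-/- replicate 2 and wild-type replicate 3. The difference of 1.69 ± 0.51 (log2, SE, 95% interval 0.53 to 2.86) missed the threshold at a limma adjusted p of 0.0557. It passed without Cbx2-/- replicate 2 (limma adjusted p = 0.0207) and without Cbx2-/- replicate 3 (limma adjusted p = 0.0387). In the other 4 of the 6 fits leaving out 1 library it did not pass (limma adjusted p up to 0.183). In both Ctgf and Cyr61, Cbx2-/- replicate 3 was the highest library and Cbx2-/- replicate 2 the lowest of the Cbx2-/- libraries.

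The start region of Cyr61 is shown because, of the matched members, its window was the one with the TEAD motif GGAATG, searched on both strands. The window is chr3:145649936-145650235 on the minus strand (RefSeq, GRCm38.p6), printed 5′ to 3′ with that match, on the reverse strand, and the TATA motif TATAAA, on the sense strand, in capitals.

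Cyr61: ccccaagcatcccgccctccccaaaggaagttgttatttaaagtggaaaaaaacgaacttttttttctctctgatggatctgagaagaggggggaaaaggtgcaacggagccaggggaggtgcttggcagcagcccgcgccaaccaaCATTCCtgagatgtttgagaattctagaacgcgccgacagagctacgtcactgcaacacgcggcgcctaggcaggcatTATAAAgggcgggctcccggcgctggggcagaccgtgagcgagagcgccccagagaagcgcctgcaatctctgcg

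The TEAD match began 103 bases and the TATA match 25 bases before the start site. GGAATG or its reverse complement was in 14.7% of all windows, and TATAAA on the sense strand in 8.32%. The shorter TEAD core GGAAT, on either strand, was in 38.7% of all windows. Besides the Cyr61 window, that core was in the Sparc window and in both windows of Tnc. Sense-strand TATAAA was also in 1 of the 2 windows of Postn, 26 bases before its start site, and in both windows of Tnc. The windows of Tnc overlap and hold the same match, 126 and 205 bases before their start sites. A CArG box, which was in 1.63% of all windows, and the AP-1 motif TGANTCA, in 7.81%, were in none of the 7 windows of the 5 matched members. These matches describe letters in a window and show no binding.

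Wisp1 (chromosome 15, 66891320 to 66923201, plus strand; Ccn4 in GENCODE), a CCN gene expressed in osteoblast precursors, fell. Its levels were 1.77, 1.39 and 4.05 FPKM in Cbx2-/- marrow and 10.2, 9.95 and 4.69 FPKM in wild-type marrow. The groups did not overlap, but Cbx2-/- replicate 3 and wild-type replicate 3 lay close to each other. Wisp1 averaged 2.40 ± 1.44 FPKM in Cbx2-/- marrow and 8.27 ± 3.1 FPKM in wild-type marrow (SD, n = 3 each), with a difference of -1.46 ± 0.35 (log2, SE, limma adjusted p = 0.0259). Its mean ratio to wild-type was 0.29 with all libraries and 0.191 without Cbx2-/- replicate 3. The call was lost without Cbx2-/- replicate 1 or 2 or wild-type replicate 1 or 2 (limma adjusted p = 0.0848, 0.0538, 0.104 and 0.101).

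Wisp2 (chromosome 2, 163820861 to 163833146, plus strand; Ccn5 in GENCODE) did not pass. It was at 17.3, 4.26 and 15.0 FPKM in Cbx2-/- marrow and at 7.84, 4.55 and 8.57 FPKM in wild-type marrow. Cbx2-/- replicates 1 and 3 lay above all wild-type libraries and Cbx2-/- replicate 2 below them. The difference of 0.57 had a 95% interval of -0.48 to 1.63 (log2, limma adjusted p = 0.439), and without Cbx2-/- replicate 2 it was 1.14 and passed (limma adjusted p = 0.0224). In the other 5 of the 6 fits leaving out 1 library it did not pass (limma adjusted p up to 0.786).

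Some markers of stromal and vascular cells, and those of fat cells, were higher in the same libraries. Of 10 tested endothelial markers 6 rose and 0 fell, with sums of 167 to 210 FPKM in Cbx2-/- marrow and 97.3 to 105 FPKM in wild-type marrow. Of 8 marrow stroma markers 4 rose, with sums of 613 to 1146 FPKM in Cbx2-/- marrow and 442 to 589 FPKM in wild-type marrow, set mainly by Cxcl12, which did not pass (limma adjusted p = 0.282). That count was 0 without wild-type replicate 1 or 3, 2 without Cbx2-/- replicate 1, up to 5 in the other fits leaving out 1 library, and 1 under scaling without haemoglobin. All 9 tested adipocyte markers rose, with sums of 2068 to 2698 FPKM in Cbx2-/- marrow and 191 to 393 FPKM in wild-type marrow, set mainly by Fabp4. Adig and Plin4 were under 1 FPKM in every wild-type library, so they passed the expression filter only through their Cbx2-/- libraries. Pck1, Plin1 and Retn reached 1 FPKM in wild-type replicate 2 but not in wild-type replicates 1 and 3. They too could pass the filter only with their Cbx2-/- libraries. Smooth muscle and pericyte markers summed to 24.8, 34.7 and 60.2 FPKM in Cbx2-/- marrow and to 15.1 to 20.0 FPKM in wild-type marrow. These sums hold Des, which split like the skeletal muscle markers. Des was at 9.18, 12.9 and 0.562 FPKM in Cbx2-/- marrow and at 0.294 to 0.515 FPKM in wild-type marrow. They also hold Tagln, at 33.9 FPKM in Cbx2-/- replicate 3, which did not pass (limma adjusted p = 0.123). Of 5 tested markers 1 was higher (Notch3) and 1 lower (Cspg4, which passed the expression filter through its wild-type libraries). When 1 library was left out, 0 to 2 of the tested markers were higher and 0 to 1 lower. The part of these cell types in the differences of Ctgf and Cyr61 was not tested.

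The thrombospondin genes differed mainly in a single library. Thbs1 (chromosome 2, 118111876 to 118127133, plus strand) was at 64.9, 67.9 and 186 FPKM in Cbx2-/- marrow and at 106, 75.6 and 57.6 FPKM in wild-type marrow. Thbs2 (chromosome 17, 14665500 to 14694235, minus strand) was at 3.68, 3.00 and 22.1 FPKM in Cbx2-/- marrow and at 3.39, 4.59 and 3.11 FPKM in wild-type marrow. For both genes Cbx2-/- replicates 1 and 2 lay within or near the wild-type range, and Cbx2-/- replicate 3 lay far above it. The differences were 0.27 for Thbs1 (95% interval -0.69 to 1.24, limma adjusted p = 0.713) and 0.70 for Thbs2 (95% interval -0.67 to 2.08, limma adjusted p = 0.469). Without Cbx2-/- replicate 3 both turned negative, at -0.22 and -0.11, with limma adjusted p of 0.493 and 0.655.

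Thrombospondin 1 is also a product of megakaryocytes and is stored in platelets. Megakaryocyte and platelet markers summed to 799, 1297 and 722 FPKM in the Cbx2-/- libraries and to 2129, 1081 and 1427 FPKM in the wild-type libraries, and 0 of 10 passed limma's adjusted p (0 higher and 3 lower at an unadjusted p under 0.05). The library with the highest Thbs1, Cbx2-/- replicate 3, had the lowest sum of these markers, whereas wild-type replicate 1 had the highest sum and the highest wild-type Thbs1. Macrophage markers, of which 3 of 9 tested rose, summed to 819 to 1201 FPKM in Cbx2-/- marrow and 584 to 669 FPKM in wild-type marrow. The count was 1 without wild-type replicate 1 or 3 and 5 without Cbx2-/- replicate 3.

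Cbx2-/- replicate 3 lay apart from the other Cbx2-/- libraries in some members and not in others. It was the highest Cbx2-/- library for 7 of the 10 members, where 37.9% of all tested genes had their highest Cbx2-/- value in it. Its level was 6.61 times the mean of Cbx2-/- replicates 1 and 2 for Thbs2, 3.80 times for Ctgf, 3.04 times for Cyr61, 2.79 times for Thbs1 and 2.57 times for Wisp1, but 0.283 times for Cthrc1. In Sparc and Postn it was the highest of evenly spread values, and in Tnc and Wisp2 it lay between the others. With that library left out, 5 members were lower (Sparc, Postn, Tnc, Cthrc1 and Wisp1) and 2 higher (Ctgf and Cyr61), beside 14.3% lower and 17.2% higher among all tested genes. With Cbx2-/- replicates 1 and 2 left out instead, 3 members were lower (Sparc, Tnc and Cthrc1) and 5 higher (Ctgf, Cyr61, Thbs1, Thbs2 and Wisp2), beside 22.6% lower and 17% higher. That fit takes the spread of its single Cbx2-/- library from the wild-type libraries. Sparc, Cthrc1 and Tnc fell and Ctgf rose in all of these fits.

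**Figure D3:**
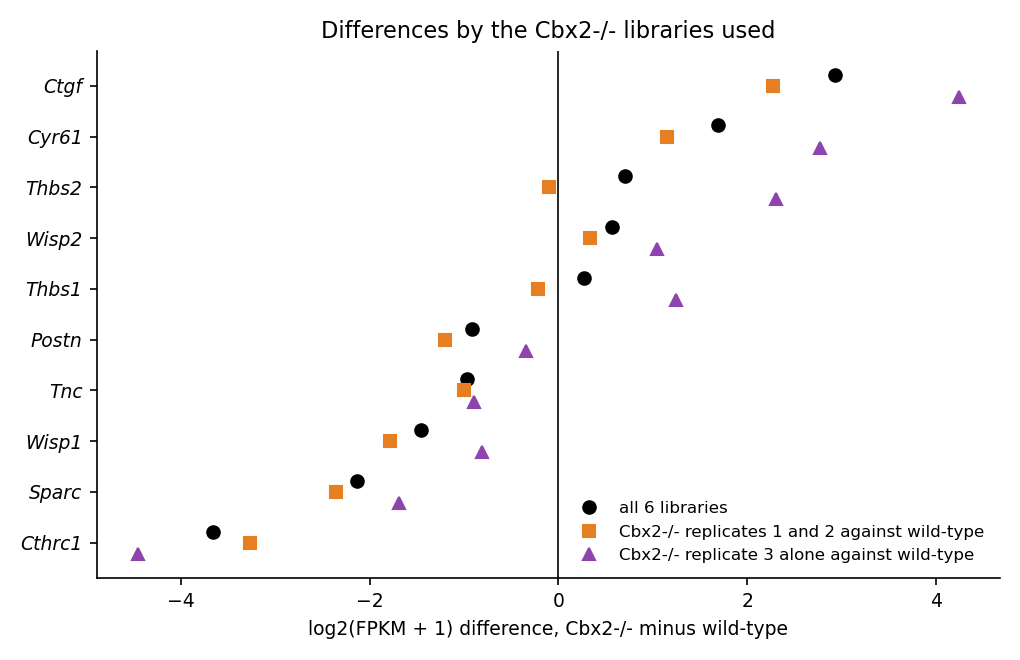
Differences of the 10 genes (Cbx2-/- minus wild-type, log2(FPKM + 1)) from 3 fits: all 6 libraries (circles), Cbx2-/- replicates 1 and 2 against wild-type (squares) and Cbx2-/- replicate 3 alone against wild-type (triangles). Thbs1 and Thbs2 lay at -0.22 and -0.11 for replicates 1 and 2 and at 1.25 and 2.31 for replicate 3, while the Sparc difference was -2.36 and -1.70.

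The order of the members by level differed between the genotypes. In Cbx2-/- marrow the mean FPKM descended from Sparc (384) through Ctgf (136), Thbs1 (106), Cyr61 (58.1), Tnc (19.7), Wisp2 (12.2), Postn (10.3), Thbs2 (9.59) and Cthrc1 (2.92) to Wisp1 (2.40). In that order the ranges of neighbours were separate between Sparc and Ctgf and between Cyr61 and Tnc, and overlapped elsewhere. Wild-type marrow had the order Sparc (1656), Thbs1 (79.8), Cthrc1 (45.1), Tnc (38.9), Postn (20.4), Cyr61 (15.6), Ctgf (14.0), Wisp1 (8.27), Wisp2 (6.99) and Thbs2 (3.70). There the ranges were separate between Sparc and Thbs1, between Thbs1 and Cthrc1, and between Tnc and Postn. Cthrc1 thus stood at place 9 in Cbx2-/- marrow and at place 3 in wild-type marrow, and Ctgf at places 2 and 7.

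The makeup of the group changed with these levels. The 10 members summed to 515, 568 and 1140 FPKM in the Cbx2-/- libraries and to 2023, 2103 and 1539 FPKM in the wild-type libraries. Sparc made up 52.7%, 66.1% and 44.3% of the sum in Cbx2-/- marrow and 87.3%, 88.4% and 87.2% in wild-type marrow. Ctgf and Cyr61 together made up 25.9%, 13.4% and 32.6% in Cbx2-/- marrow and 1.07%, 1.26% and 2.64% in wild-type marrow. For each FPKM of Ctgf there were 3.00, 7.54 and 1.90 FPKM of Sparc in the Cbx2-/- libraries and 235, 106 and 79.3 FPKM in the wild-type libraries.

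Set against type I collagen of the same library, most members were higher in Cbx2-/- marrow. Col1a1 and Col1a2, the chains of the main bone collagen, summed to 879, 1210 and 1586 FPKM in Cbx2-/- marrow and to 8838, 13389 and 7787 FPKM in wild-type marrow. Sparc was at 309, 310 and 319 FPKM per 1000 FPKM of this collagen in Cbx2-/- marrow and at 200, 139 and 172 in wild-type marrow, so it was lower by a smaller factor than the collagen chains. Tnc was at 15.9, 20.5 and 12.8 per 1000 in Cbx2-/- marrow and at 5.0, 3.09 and 3.99 in wild-type marrow. Cthrc1 was at 3.31, 3.94 and 0.685 per 1000 in Cbx2-/- marrow and at 4.92, 3.86 and 5.15 in wild-type marrow, and its groups overlapped, as did those of Wisp1. For the other 8 members every Cbx2-/- ratio was above every wild-type ratio, with p = 0.1 in an exact permutation test of log2 ratios (two-sided, n = 3 each), the smallest that 3 against 3 libraries allow. The share of all tested genes with such separate ratios was not computed. Because the collagen sum fell, this ratio rises for any gene that fell less, so the count of 8 is not a result about the members. This ratio was chosen after the levels had been seen, and it shows unequal change of 2 transcripts, not a rise of the member.

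**Figure D4:**
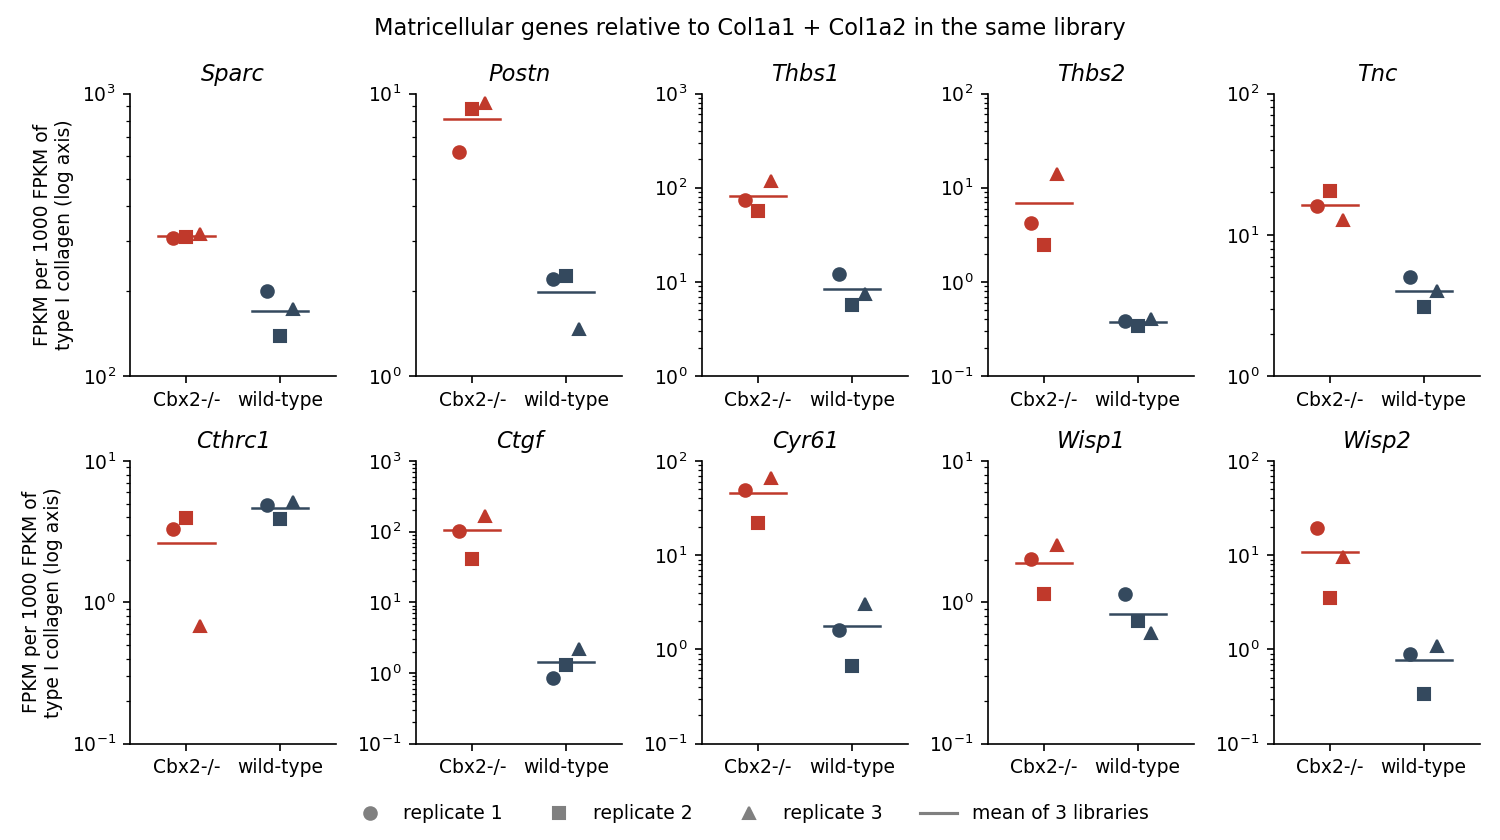
FPKM of each gene per 1000 FPKM of Col1a1 and Col1a2 summed in the same library, on log axes, with Cbx2-/- in red on the left, wild-type in dark blue on the right and a bar at the mean of 3 libraries. The Sparc ratio was 309 to 319 in Cbx2-/- marrow and 139 to 200 in wild-type marrow, while the Cthrc1 ratios of the genotypes overlapped.

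For each member, the 2 tested genes with the most similar profile over the 6 libraries were sought among 10198 named genes of at least 2 FPKM on average, by the root mean square difference of log2(FPKM + 1) after each profile was centred. For Cthrc1 these were both osteocalcin genes, Bglap2 and Bglap, at 0.35 and 0.39 log2 units. Near Sparc lay Trim10, a gene of red cell precursors, and Cpe, which encodes a carboxypeptidase, at 0.11 and 0.14. The genes closest to Tnc were Cpxm1 and Carhsp1 at 0.09 and 0.12, and those closest to Postn were Loxl2, a collagen cross-linking enzyme gene, and Cdo1 at 0.21 and 0.22. Wisp1 was nearest to Hey1, a Notch target gene, and Trib2 at 0.15 and 0.19. Ctgf had less similar neighbours, Dpep2 and Igfbp3, at 0.48 and 0.55, and Cyr61 had Ager and Angpt2, at 0.35 and 0.37. Thbs1 lay near Dhrs9 and the osteocyte gene Mepe at 0.20 and 0.20, Thbs2 near Pappa and Tfpi2 at 0.23 and 0.26, and Wisp2 near Wnt4 and Adap2 at 0.31 and 0.40. With 6 libraries of 2 genotypes, many genes share such profiles, and these distances carry no test.

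Other genes of the matricellular families moved in both directions. Of 19 listed genes 9 could be tested, of which 2 rose and 2 fell, with a median difference of 0.21. Tnn, which encodes tenascin W, a tenascin of bone-forming regions, was at 0.315, 0.230 and 0.512 FPKM in Cbx2-/- marrow and at 2.09, 2.63 and 1.34 FPKM in wild-type marrow (difference -1.14 ± 0.19, log2, SE, limma adjusted p = 0.00784). It passed the expression filter through its wild-type libraries. Tgfbi, a fasciclin-domain relative of Postn, was at 95.3, 62.9 and 86.9 FPKM in Cbx2-/- marrow and at 31.1, 43.0 and 35.8 FPKM in wild-type marrow, and rose (limma adjusted p = 0.0105). The SPARC-related genes Smoc1 and Smoc2 went opposite ways, Smoc1 being 2.1-fold higher and Smoc2 at 0.337 times the wild-type mean (limma adjusted p = 0.0106 and 0.0176). The calls of Tgfbi and Smoc1 were each lost in 2, that of Smoc2 in 4 and that of Tnn in 0 of the 6 leave-one-out fits. Spp1 (osteopontin), at 843, 515 and 1646 FPKM in Cbx2-/- marrow and 419, 615 and 533 FPKM in wild-type marrow, and Fstl1, with a difference of 0.21, did not pass. Spock3 was listed at 0 in every library.

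Of 25 listed receptor genes for matricellular proteins 19 were tested, of which 4 rose and 2 fell, with a median difference of 0.05. Cd36, a thrombospondin receptor also found on fat cells, endothelium and macrophages, was at 80.7, 66.4 and 75.0 FPKM in Cbx2-/- marrow and at 33.5, 48.4 and 27.5 FPKM in wild-type marrow (limma adjusted p = 0.0176). Stab1, a scavenger receptor that takes up Sparc, was at 14.4, 11.8 and 26.2 FPKM in Cbx2-/- marrow and at 6.55, 6.89 and 7.30 FPKM in wild-type marrow (limma adjusted p = 0.0227). Itga1, a collagen receptor subunit, was 2.05-fold higher, and Itga11, another collagen receptor subunit, was at 0.409 times the wild-type mean (limma adjusted p = 0.0224 and 0.0152). The remaining calls, named after their values were seen, were the endocytic receptor gene Lrp1, which rose 1.89-fold, and the integrin gene Itga4, at 0.681 times the wild-type mean (limma adjusted p = 0.027 and 0.0479). In fits leaving out 1 library, 0 to 4 receptor genes were higher and 0 to 5 lower, so this count was not stable. The reason was not tested. Cd47, the other main thrombospondin 1 receptor, was at 94.8, 96.1 and 81.3 FPKM in Cbx2-/- marrow and at 123, 117 and 109 FPKM in wild-type marrow, and Calr at 435, 321 and 190 FPKM and at 284, 324 and 253 FPKM, and neither passed (limma adjusted p = 0.16 and 0.916).

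Of 20 further YAP and TEAD target genes, listed without Ctgf and Cyr61, 14 were tested, of which 5 rose and 1 fell, with a median difference of 0.21. Amotl2, which encodes a junction protein that binds YAP, was at 13.0, 11.1 and 13.6 FPKM in Cbx2-/- marrow and at 3.96, 4.56 and 4.11 FPKM in wild-type marrow, 2.99-fold higher (difference 1.38 ± 0.13, log2, SE, limma adjusted p = 0.000988). Unlike Ctgf, its Cbx2-/- libraries lay close together, and its call held in 6 of 6 fits leaving out 1 library. Axl, a receptor kinase gene also expressed in macrophages, was 1.84-fold higher and Crim1 3.54-fold higher (limma adjusted p = 0.0093 and 0.0302). Igfbp3, named among the genes most like Ctgf, was at 132, 35.3 and 312 FPKM in Cbx2-/- marrow and at 18.4, 25.5 and 13.8 FPKM in wild-type marrow (limma adjusted p = 0.0392). Dock5, named after its values were seen, was 1.90-fold higher (limma adjusted p = 0.0305), and Gadd45a, a growth arrest gene, fell to 42.3 FPKM in Cbx2-/- marrow, against 73.3 FPKM in wild-type marrow (limma adjusted p = 0.0219). Asap1 and Lats2 did not pass, with differences of 0.08 and 0.17. The count of higher targets was 1 to 5 in fits leaving out 1 library and 2 when libraries were scaled without haemoglobin.

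The kinases, co-activators and TEAD factors of the Hippo pathway were tested for 13 of 16 listed genes, and 0 passed limma's adjusted p (1 higher and 1 lower at an unadjusted p under 0.05), with a median difference of 0.01. The lowest adjusted p was that of Stk3, a Hippo kinase gene, at 3.49, 3.75 and 3.39 FPKM in Cbx2-/- marrow and 5.67, 4.64 and 4.67 FPKM in wild-type marrow (limma adjusted p = 0.0735). Tead3 was at 1.64, 1.05 and 2.45 FPKM in Cbx2-/- marrow and at 0.938, 0.834 and 0.934 FPKM in wild-type marrow (limma adjusted p = 0.14). Tead3 was under 1 FPKM in every wild-type library, so it passed the expression filter only through its Cbx2-/- libraries. In fits leaving out 1 library, 0 to 1 genes of this list were higher and 0 to 1 lower. With Cbx2-/- replicate 3 alone for its genotype more of them were higher, in a fit that takes its spread from the wild-type libraries. Lats2 is in both the target and the pathway list.

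**Figure D5:**
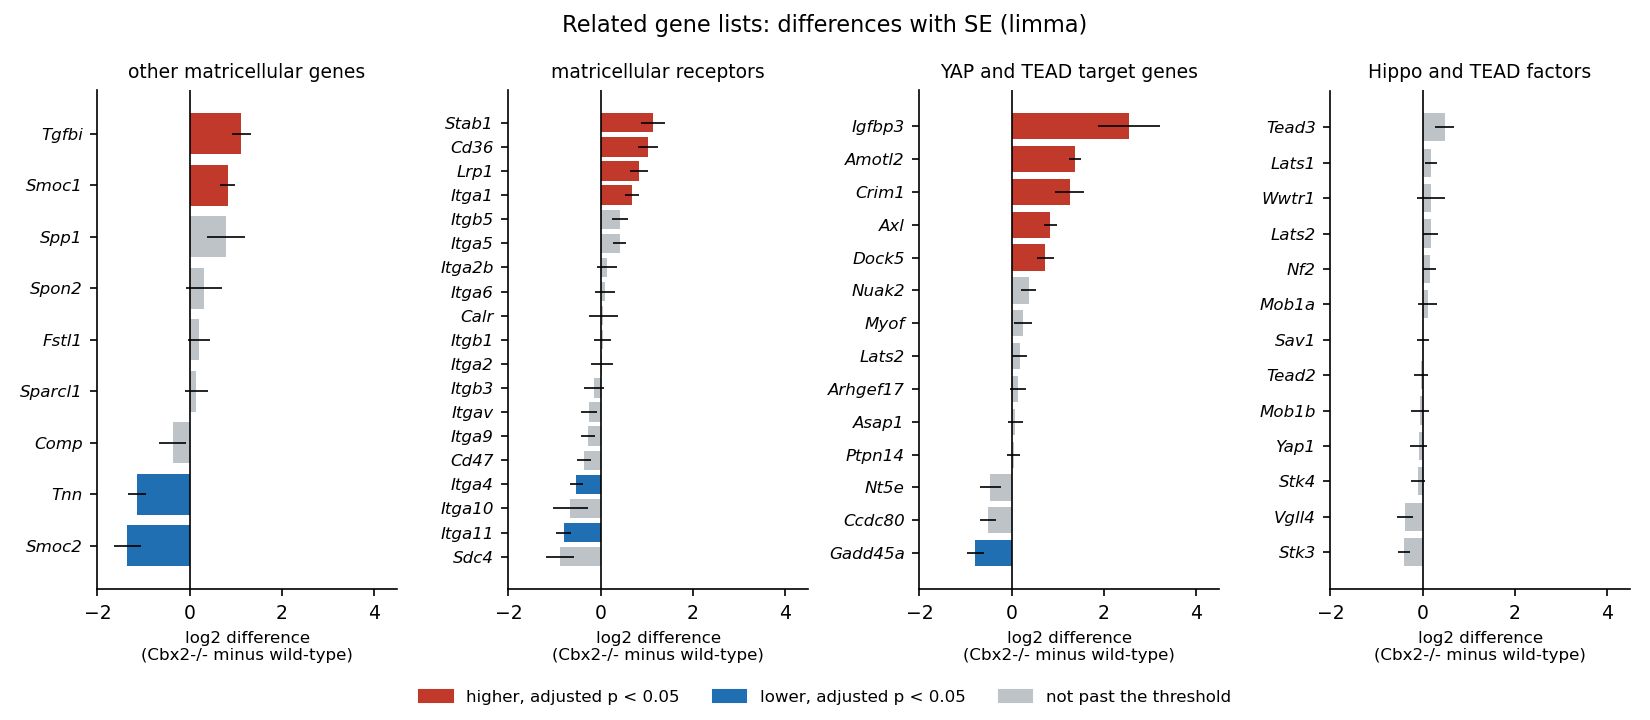
Differences (Cbx2-/- minus wild-type, log2(FPKM + 1)) of the tested genes of 4 related lists, with bars from 0 and error bars of 1 SE from the limma fit (n = 3 each), coloured by the call at an adjusted p of 0.05. Rises and falls stand side by side in the first 3 panels (2 and 2, 4 and 2, 5 and 1), and no gene of the Hippo and TEAD panel passed.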

How the data were processed

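RNA had been sequenced from marrow of 6 animals, and the labels' protocols name a stranded, poly(A)-selected library kit and single-end reads. Per the submitters' processing notes, FastQC 0.11.5, TopHat2 2.1.0 and Cufflinks 2.2.1 were used with mm10. For the annotation and the strand setting, the sources used here give nothing. The authors deposited FPKM values per gene and library, with lower and upper limits equal to each other in every row (not used) and a status word, which was OK for all member values. Summed FPKM was 599601 to 741192 per library. Total reads are not given. The commonest ratio of values under 0.15 FPKM gave approximate depths, relative to wild-type replicate 1, of 0.912 to 1.22.

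From these values log2(FPKM + 1) was computed, a scale that understates changes of low genes. The 12006 genes reaching 1 FPKM in 3 or more libraries were fitted in R 4.3.3 by limma 3.58.1 (trended empirical Bayes, two-sided, no block), with Benjamini-Hochberg adjustment over all of them and a threshold of 0.05. The fit was tested on simulated data. Folds are ratios of mean FPKM. Lists are described by counts, with no set test. The rule for naming took all members, up to 4 genes per list by adjusted p and up to 2 that did not pass by mean FPKM, from 4 related lists and 12 marker lists. Members and lists were chosen with earlier results of these data known. Gene positions were read from the GRCm38 annotation GENCODE vM21, where all 10 members overlapped the locus in the table. Antisense genes overlap Thbs1, Tnc and Ctgf, whose values are uncertain to that extent. Figures were drawn with matplotlib 3.10.9.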

Additional observations from a re-analysis of the deposited data

How the results depend on the processing

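The alternatives were other pseudocounts, filters, scalings and limma settings, a covariate for Y-linked transcripts, a replicate block and fits without each library. The number of lower members, 4 with all libraries, was 2 with no filter on low values and 2 to 5 in the fits that left out 1 library. The number of higher members, 1 with all libraries, was 0 to 3 in those fits, with 0 reached without wild-type replicate 1 and 3 without Cbx2-/- replicate 2, and it was 5 with both Cbx2-/- libraries with muscle transcripts left out. With no filter Tnc and Wisp1 lost their calls (limma adjusted p = 0.0531 and 0.0641). Scaling without haemoglobin ended the call of Wisp1 (limma adjusted p = 0.0549). Without the filter, both the genes adjusted for and the genes that set the fit's variances change, and no cause of these losses was tested. Of 178 member differences under an alternative 2 reversed, those of Thbs1 (-0.22) and Thbs2 (-0.11) without Cbx2-/- replicate 3 (up to 0.53 and 1.16 in the other leave-one-out fits), and 152 kept their direction and side of the threshold. Of 612 counts for lists and the whole table, 125 moved by over 1.5 times.

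Same-numbered libraries did not deviate together (correlations of deviations 0.194, -0.179 and -0.103), so the replicate number gives no pairing. With the replicate block, 2 members were lower (Sparc and Cthrc1) and 2 higher (Ctgf and Cyr61). The shares over all tested genes are not given for this block, nor for most fits leaving out 1 library. The member counts from those fits are therefore not a result about the members. Total reads are unknown, so no counting error can be given for members near 1 FPKM such as Wisp1 and Cthrc1 in Cbx2-/- marrow.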
